A study of Homo sapiens with 6 samples.

Results

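The expression of 37 genes that repair the DNA lesions left by platinum drugs, or that carry and bind platinum, was followed in melanoma cells with and without forced expression of CT16. The genes were listed by symbol. They comprised 12 genes of nucleotide excision repair, 3 of base excision repair, 2 of mismatch repair, 4 of homologous recombination, 7 of the Fanconi anemia pathway, 2 of translesion synthesis and 7 of platinum transport and binding. A gene was tested when a probe annotated to it gave a detection p under 0.01 on at least 3 of the 6 arrays, and a gene with several such probes was read from the brightest. By this rule 30 of the 37 genes were tested, out of 11264 genes tested on the arrays. The CT16 group carried the CT16 cDNA in the plasmid pEXPR-IBA103 as a stable transfectant of the melanoma line WM-266-4, and the control group carried the same plasmid without an insert, each with 3 arrays numbered as replicates. Both groups had gone through transfection and drug selection for the plasmid. Nothing in the sources states whether the transfected cells were clones or pools, or whether the 3 cultures of a group were transfected separately, so the p-values measure only the spread between these cultures. No cisplatin treatment was named for them. The study asked whether CT16 alters survival in cisplatin with another melanoma line, A2058, after CT16 was silenced by siRNA.

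Cisplatin forms adducts and crosslinks between DNA bases. Nucleotide excision repair cuts out the crosslinks within one strand, while the Fanconi anemia pathway, homologous recombination and translesion synthesis act together on crosslinks that join both strands. Mismatch repair proteins recognise platinum adducts and can pass the signal on to cell death. Platinum itself moves through cells partly on the route of copper: SLC31A1 (CTR1) is a copper importer, ATOX1 a copper chaperone, and ATP7A and ATP7B are copper-exporting ATPases. ABCC2 (MRP2) exports glutathione and other conjugates, and GSTP1 is a glutathione transferase.

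The transfected gene and the quality of the arrays were examined first. PAGE5, the gene that encodes CT16, gave log2 signals of 6.24, 6.14 and 7.47 on the CT16 arrays (replicates 1 to 3) and 5.40, 5.44 and 5.70 on the control arrays with its brightest tested probe. This is a difference of 1.11 ± 0.37 (SE, n = 3 each), with all CT16 arrays above all control arrays and an adjusted p of 0.582 by limma. Without CT16 replicate 3 it was 0.71 ± 0.18 with an adjusted p of 0.176 by limma. A second tested PAGE5 probe differed by 0.02 ± 0.30, or by −0.30 ± 0.17 without that array. Both probes were called detected on all 3 control arrays, where the dimmest detected probes read 5.14 to 5.25, so the control signals lay near the limit of detection. By the paper's account, WM-266-4 cells are CT16 negative. It also states that CT16 had been detected in the stable transfectants by qRT-PCR and by Western blot. Whether these probes read the transfected cDNA was not tested. CT16 replicate 3 stood apart from every other array. It had the fewest detected probes, 16200 (33.2%), against at most 18789 (38.5%) on the others, its correlations with the other 5 arrays over the tested probes were 0.873 to 0.934, and it was the highest or lowest of the 6 arrays for 79.4% of tested genes. Differences of the 30 tested genes whose sign turned without it are therefore given both ways. Of 9 melanoma marker genes with a probe, 8 were detected on all 6 arrays, PMEL, MLANA, TYR and MITF among them, with summed signals of 41773 to 45047 on CT16 arrays and 43756 to 48733 on control arrays. Of the fibroblast markers, FAP alone of 7 was detected on all arrays and COL3A1 on none. The summed signals were 979 to 1231 on CT16 arrays and 679 to 876 on control arrays. Among 3 tested fibroblast markers, 2 were higher and 1 lower in CT16 cells, from −1.87 to 3.63. Of these, 1 passed the test with an adjusted p of 0.0081 by limma. Of the immune markers, 3 of 7 were detected on all arrays (CD14, CD68 and FCER1G) and PTPRC, CD3E and NKG7 on none. The summed signals were 1483 to 2266 on CT16 arrays and 1029 to 1467 on control arrays. The 4 tested immune markers were all higher in CT16 cells, with a median difference of 0.59, and none passed the test. Of 9 epithelial and endothelial markers, 3 were detected on all arrays (KRT18, PECAM1 and VWF) and KRT8, KRT5, KRT14 and CDH5 on none. The sums were 423 to 809 on CT16 arrays and 471 to 588 on control arrays. Among 5 tested, 2 were higher and 3 lower in CT16 cells. The part of these signals in the results was not tested. In cultures measured in bulk, fewer cells expressing a gene and less RNA per cell cannot be told apart.

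No repair or platinum gene passed the test between CT16 and control cells. Of the 30 tested genes, 0 reached an adjusted p under 0.05 by limma, where 27 of all 11264 genes did (0.240%). The lowest adjusted p of the 30 was 0.523, for ABCC2. At an unadjusted p under 0.05 there were 2 genes, ABCC2 and ATP7B, both lower in CT16 cells, where 6.41% of all genes had such a p, 3.31% higher and 3.10% lower. The CT16 and control arrays did not overlap for 5 of the 30 genes, beside 14.2% of all genes. The 2 genes apart with higher signals on CT16 arrays were PARP1 and PMS2 (all genes, 6.79%), and the 3 with lower signals were XPC, ATP7B and ABCC2 (all genes, 7.40%). Each of these counts lay near the share of all genes.

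**Figure D1:**
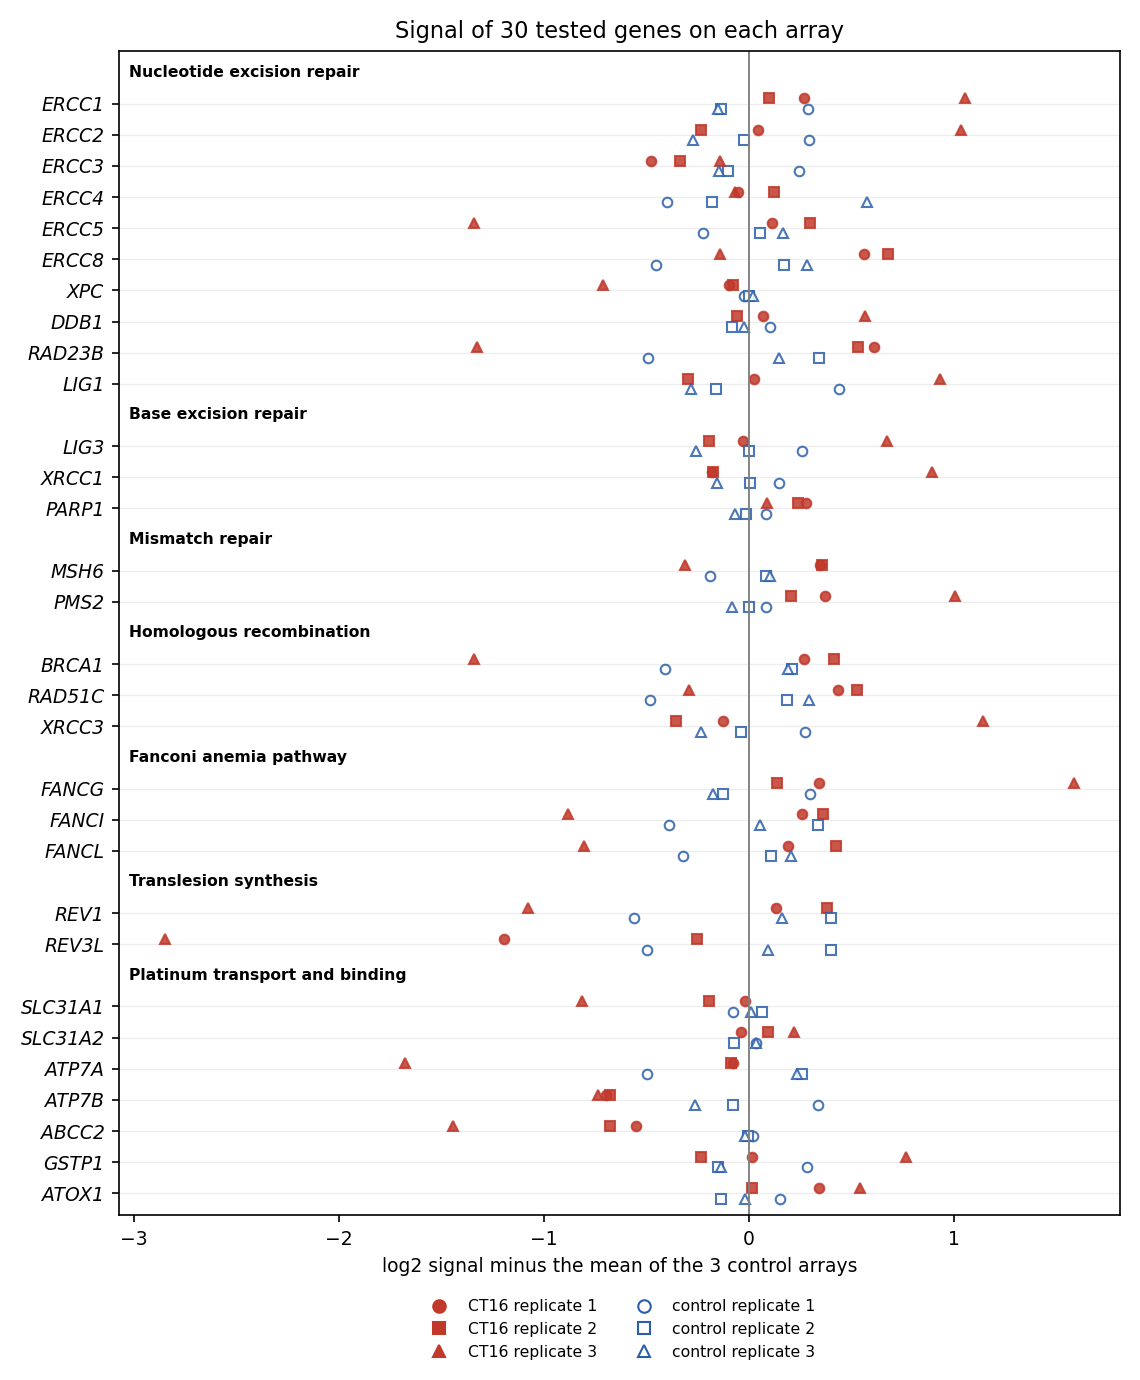
Log2 signal of each of the 30 tested genes on each array, minus the mean of that gene over the 3 control arrays, ordered by role. Filled red symbols are CT16 arrays and open blue symbols control arrays, with circles, squares and triangles for replicates 1, 2 and 3, and CT16 replicate 3 is the highest or lowest of the 6 points for 25 of the 30 genes.

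In direction the genes were nearly balanced, with 17 higher and 13 lower in CT16 cells. Their median log2 difference, CT16 minus control, was 0.11, beside −0.03 over all tested genes, and the median size of the difference regardless of sign was 0.222, beside 0.232. For 24 of the 30 the difference was smaller than 0.5, and it exceeded 1 for REV3L alone. The SE of a difference ran from 0.197 to 0.621 with a median of 0.312, beside 0.302 over all genes. The 95% interval lay wholly within 1 log2 unit of no difference for 15 genes. For the other 15, a difference of 1 log2 unit or more in at least one direction lay inside the interval, so a change of that size lay within the error at this number of arrays.

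**Figure D2:**
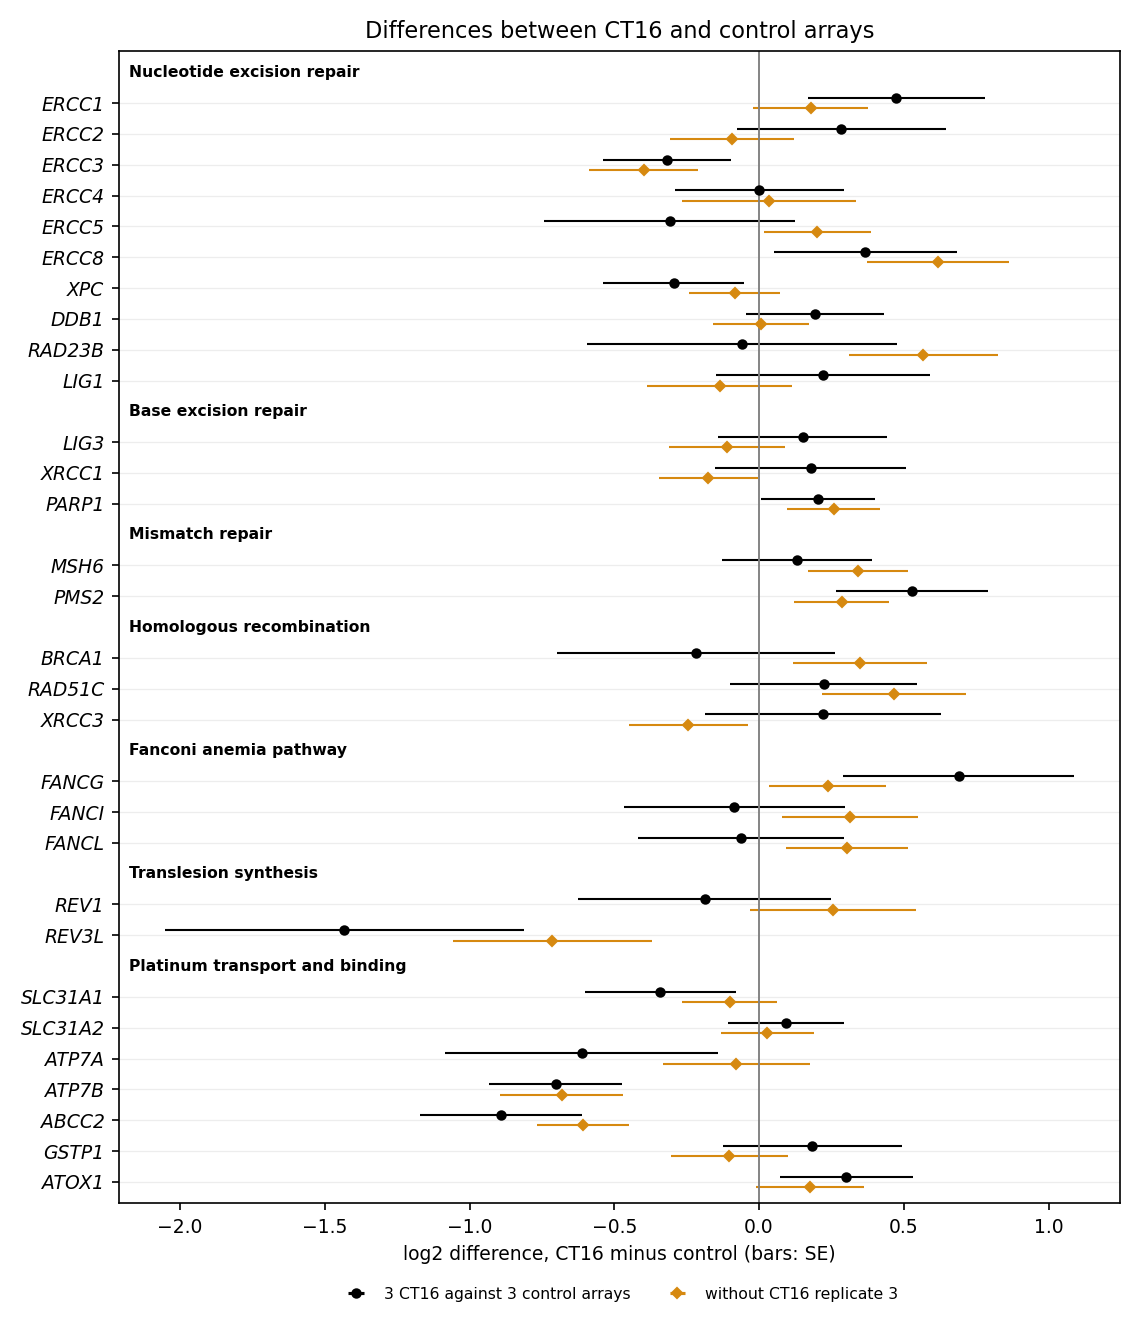
Log2 difference of each of the 30 tested genes, CT16 minus control, by role, with bars of 1 SE from the limma fit. Black circles are from all 6 arrays and orange diamonds from the fit without CT16 replicate 3, where 12 of the 30 differences lie on the other side of 0.

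The platinum transport and binding genes held the pair with the lowest p-values. All 7 were tested, 3 were higher and 4 lower in CT16 cells, and their median difference was −0.34, or −0.10 without CT16 replicate 3. ABCC2, the conjugate exporter, had log2 signals of 7.78, 7.66 and 6.89 on the CT16 arrays and 8.36, 8.33 and 8.32 on the control arrays. All CT16 arrays lay below all control arrays, the lowest being replicate 3, and the control arrays were within 0.02 (SD) of one another. The difference was −0.89 ± 0.28 (SE, n = 3 each), or 1.86-fold lower in CT16 cells, with a 95% interval of −1.54 to −0.24 and an adjusted p of 0.523 by limma. Without CT16 replicate 3 it was −0.61 ± 0.16 with an adjusted p of 0.202.

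ATP7B, the copper-exporting ATPase whose loss causes Wilson disease, had log2 signals of 7.03, 7.05 and 6.99 on the CT16 arrays and 8.06, 7.65 and 7.47 on the control arrays. The groups did not overlap, and here the control arrays were the more spread, with control replicate 1 the highest. The difference was −0.70 ± 0.23 (SE, n = 3 each), or 1.63-fold lower in CT16 cells, with a 95% interval of −1.24 to −0.16 and an adjusted p of 0.553 by limma. Without CT16 replicate 3 it stayed at −0.68 ± 0.21. A second ATP7B probe was detected on 2 CT16 arrays and on 0 control arrays and was not tested. ABCC2 was read from 1 probe.

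The promoters of these 2 genes are shown because they had the lowest p-values of the 30. Each is the 250 bases before the most upstream RefSeq start in the assembly GRCh38.p14, written 5′ to 3′ on the strand of the gene. Both strands were searched for the GC box GGGCGG, the CCAAT box CCAAT, the metal response element core TGCACNC or TGCGCNC, the antioxidant response element core TGACNNNGC, and the E2F letters TTTGGCGC or TTTCGCGC, and matches are in capitals. The ABCC2 sequence lies at chr10:99782390-99782639 on the plus strand and the ATP7B sequence at chr13:52012133-52012382 on the minus strand.
ABCC2: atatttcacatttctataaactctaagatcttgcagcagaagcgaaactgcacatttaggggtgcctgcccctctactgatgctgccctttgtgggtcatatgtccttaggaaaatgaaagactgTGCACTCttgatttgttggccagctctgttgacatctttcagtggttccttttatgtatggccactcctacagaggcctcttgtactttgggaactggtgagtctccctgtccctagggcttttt
ATP7B: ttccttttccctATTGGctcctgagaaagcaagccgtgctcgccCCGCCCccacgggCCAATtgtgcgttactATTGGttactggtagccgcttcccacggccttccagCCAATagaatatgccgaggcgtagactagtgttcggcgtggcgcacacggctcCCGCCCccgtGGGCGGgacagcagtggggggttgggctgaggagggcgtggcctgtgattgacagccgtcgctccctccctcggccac
They shared no motif of the 5 searched. In ABCC2 the match was a metal response element core, TGCACTC, starting 125 bases before the start, whereas ATP7B held 3 GC boxes and 4 CCAAT boxes. Over the 28 tested genes with a listed promoter, the GC box matched in 21 (75%), beside 42.6% of 35116 RefSeq promoters. The CCAAT box matched in 9 (32.1%, beside 32.0%), the metal response element core in 11 (39.3%, beside 24.8%), the antioxidant response element core in 3 (10.7%, beside 10.9%) and the E2F letters in 0 (beside 0.968%). The median GC content was 64.4% in the 28 promoters and 58.0% in all, so these shares were read in windows of unlike base composition. The sets also differed in kind. Each of the 28 genes was read from its most upstream start only, while the 35116 promoters included every listed start of a gene. A match is a description of letters, and the lack of one says only that the letters are not in this window.

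**Figure D3:**
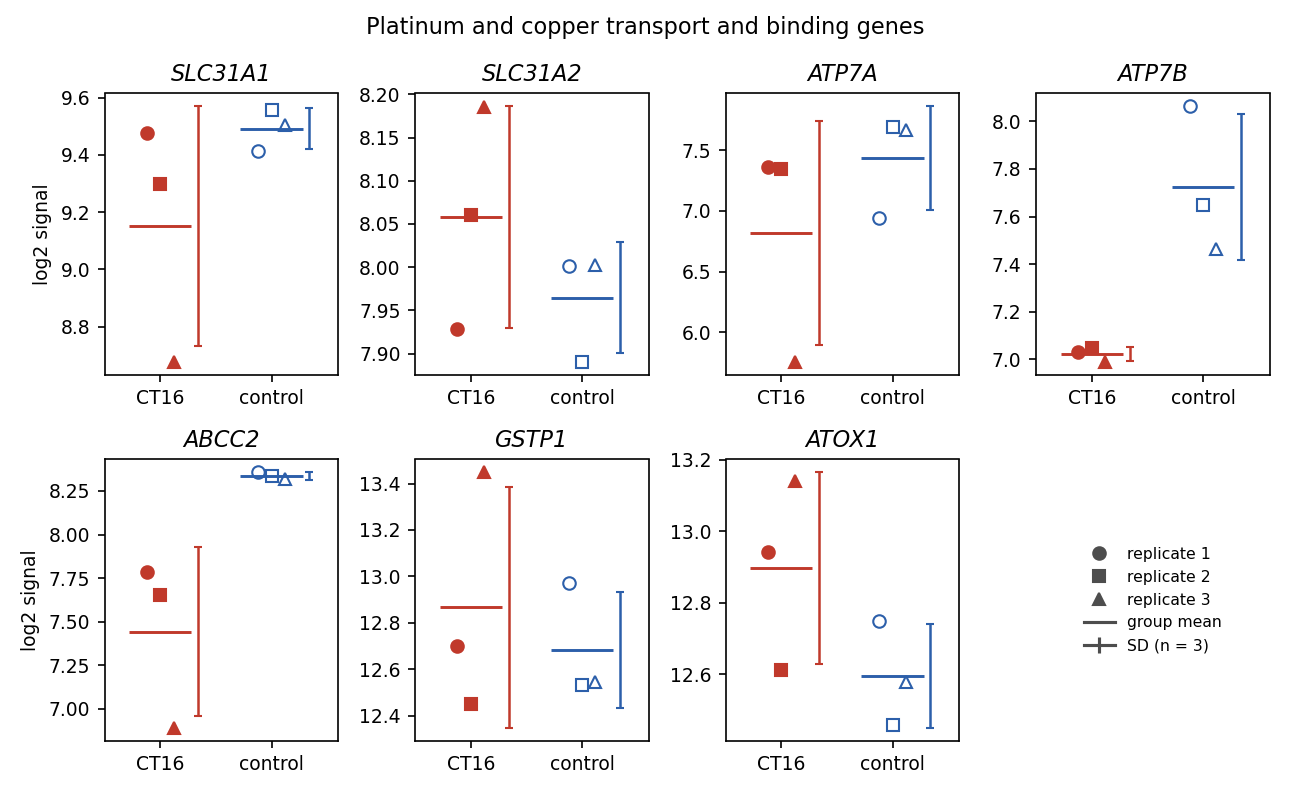
Log2 signal of the 7 platinum transport and binding genes on each array, CT16 arrays (filled red) left of control arrays (open blue), with a horizontal bar at each group mean, a vertical bar of 1 SD to either side (n = 3), symbols by replicate and a scale of its own for each gene. ABCC2 and ATP7B are the genes whose groups do not overlap, and the CT16 arrays of ATP7A are spread from 5.75 to 7.36.

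The other 5 platinum genes overlapped between the groups. ATP7A, the sister ATPase whose loss causes Menkes disease, ranged in log2 signal from 5.75 to 7.36 on the CT16 arrays and from 6.94 to 7.70 on the control arrays. Its difference of −0.61 ± 0.47 rested on CT16 replicate 3 and was −0.08 without it. The copper importer SLC31A1 differed by −0.34 ± 0.26, and by −0.10 without that array, and the related SLC31A2 by 0.09 ± 0.20. The glutathione transferase GSTP1 differed by 0.18 ± 0.31 and the chaperone ATOX1 by 0.30 ± 0.23, with adjusted p-values by limma of 0.965 and 0.959. Without CT16 replicate 3 they differed by −0.10 ± 0.20 and 0.18 ± 0.19. For SLC31A2 the 95% interval was −0.37 to 0.56 and for ATOX1 −0.23 to 0.84, so neither bracketed a difference of 1 log2 unit. For ATP7A it was −1.72 to 0.49.

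The 2 translesion synthesis genes were both lower in CT16 cells and neither passed the test. REV3L, the catalytic subunit of DNA polymerase zeta, had the largest difference of the 30 genes. Its log2 signals were 7.37, 8.32 and 5.72 on the CT16 arrays and 8.07, 8.97 and 8.66 on the control arrays. CT16 replicate 2 lay above control replicate 1, so the groups overlapped, and CT16 replicate 3 was far below the rest. The difference was −1.43 ± 0.62 (SE, n = 3 each), 2.70-fold lower, with a 95% interval of −2.89 to 0.02 and an adjusted p of 0.795 by limma. It was −0.71 ± 0.34 without CT16 replicate 3. REV1, a deoxycytidyl transferase that recruits the other translesion polymerases, had log2 signals of 7.75, 8.00 and 6.54 on the CT16 arrays and 7.06, 8.02 and 7.78 on the control arrays. Its difference was −0.19 ± 0.44, and it turned to 0.26 ± 0.29 without CT16 replicate 3, which was the lowest of the 6 arrays.

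In nucleotide excision repair 10 of 12 genes were tested, with 6 higher and 4 lower in CT16 cells, a median difference of 0.10 and a lowest adjusted p of 0.959 by limma. ERCC1, which with ERCC4 (XPF) forms the nuclease that cuts on the 5′ side of a lesion, had log2 signals of 12.20, 12.03 and 12.99 on the CT16 arrays and 12.22, 11.79 and 11.78 on the control arrays. The groups overlapped through control replicate 1, and the difference of 0.47 ± 0.31 (SE, n = 3 each) was 0.18 ± 0.20 without CT16 replicate 3. ERCC1 had 4 tested probes, all higher in CT16 cells. The other bright probe differed by 0.56 ± 0.32 and the third by 0.30 ± 0.36, or −0.09 ± 0.17 without CT16 replicate 3. The dimmest gave 8.90, 8.30 and 10.06 on the CT16 arrays and 7.75, 7.55 and 7.87 on the control arrays, a difference of 1.37 ± 0.43 with no overlap and an adjusted p of 0.527 by limma, or 0.87 ± 0.22 without CT16 replicate 3. It was picked out after its values were seen, and was not the probe that stood for the gene. Whether the probes read different transcripts was not tested.

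XPC, the damage sensor of global genome repair, had log2 signals of 10.29, 10.32 and 9.68 on the CT16 arrays and 10.37, 10.39 and 10.41 on the control arrays. The groups did not overlap, but CT16 replicates 1 and 2 lay just under the controls. The difference of −0.29 ± 0.24 (SE, n = 3 each) was −0.08 ± 0.16 without CT16 replicate 3. ERCC8 (CSA), which acts where a lesion stops RNA polymerase, had log2 signals of 7.73, 7.84 and 7.03 on the CT16 arrays and 6.71, 7.33 and 7.45 on the control arrays. Its groups overlapped, with a difference of 0.37 ± 0.32, and CT16 replicate 3 went against the other CT16 arrays. Without that array the difference was 0.62 ± 0.25 with an adjusted p of 0.402 by limma, and ERCC8 then joined ABCC2 and ATP7B at an unadjusted p under 0.05. That made 3 of 30 genes, where 11.7% of all genes had such a p. A second tested ERCC8 probe differed by 0.17 ± 0.36, or by 0.37 ± 0.34 without that array.

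Of the remaining nucleotide excision repair genes, the helicases of TFIIH, ERCC2 (XPD) and ERCC3 (XPB), differed by 0.28 ± 0.36 and −0.32 ± 0.22. ERCC4 differed by 0.00 ± 0.29 and was detected on 3 CT16 arrays and 2 control arrays. It was the only tested gene whose brightest probe was not detected on all 6. ERCC5 (XPG), the nuclease on the 3′ side, differed by −0.31 ± 0.43, RAD23B, the partner of XPC, by −0.06 ± 0.54, and the ligase LIG1 by 0.22 ± 0.37. Their adjusted p-values were 0.959 or higher. Without CT16 replicate 3 the sign turned for ERCC2 (−0.09 ± 0.21), ERCC5 (0.20 ± 0.19), RAD23B (0.57 ± 0.26) and LIG1 (−0.14 ± 0.25). DDB1, the adaptor of the damage-binding ubiquitin ligase, differed by 0.19 ± 0.24 with its brightest probe. Its dimmer tested probes gave 1.62 ± 0.54 and 1.00 ± 0.46, both with no overlap between the groups and neither past the test. Without CT16 replicate 3 they gave 1.23 ± 0.48 and 0.62 ± 0.37. They read 4.75 and 5.12 on control replicate 1, the lowest of the 6 arrays for both. The dimmest detected probe of that array read 5.25, so both differences include an undetected value. Each of these DDB1 probes was detected on 3 CT16 and 2 control arrays. XPA, which verifies the lesion, was detected on 0 of 6 arrays, and ERCC6 (CSB) on 1 CT16 and 1 control array, so neither was tested.

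The 3 base excision repair genes were all higher in CT16 cells by at most 0.20, and the signs for XRCC1 and LIG3 depended on 1 array. PARP1, which binds DNA breaks and attaches ADP-ribose chains, had log2 signals of 11.75, 11.71 and 11.56 on the CT16 arrays and 11.55, 11.46 and 11.40 on the control arrays. The groups did not overlap, although CT16 replicate 3 lay just above control replicate 1. The difference was 0.20 ± 0.20 (SE, n = 3 each) with an adjusted p of 0.959 by limma. XRCC1, the scaffold of single-strand break repair, had log2 signals of 8.38, 8.38 and 9.45 on the CT16 arrays and 8.71, 8.56 and 8.40 on the control arrays. CT16 replicates 1 and 2 were below every control array and replicate 3 was above them all. The difference was 0.18 ± 0.33 with replicate 3 and −0.18 ± 0.17 without it. LIG3, the ligase that works with XRCC1, turned sign in the same way, with 0.15 ± 0.29 and −0.11 ± 0.20.

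Both mismatch repair genes were higher in CT16 cells without passing the test. PMS2, a nuclease of mismatch repair, had log2 signals of 7.91, 7.74 and 8.55 on the CT16 arrays and 7.62, 7.54 and 7.45 on the control arrays, with no overlap. The difference was 0.53 ± 0.26 (SE, n = 3 each) with an adjusted p of 0.898 by limma, and 0.29 ± 0.16 without CT16 replicate 3. A second tested PMS2 probe gave 6.01, 6.12 and 5.84 on the CT16 arrays and 4.85, 5.68 and 5.55 on the control arrays. Its groups were also apart, with a difference of 0.63 ± 0.27. This probe was detected on 3 CT16 and 2 control arrays. The dimmest detected probe of control replicate 1 read 5.25, so the 4.85 there is an undetected value. PMS2 has pseudogene copies of near-identical sequence, so the gene read by these probes is uncertain. MSH6, which takes part in mismatch recognition, had log2 signals of 10.40, 10.41 and 9.74 on the CT16 arrays and 9.87, 10.14 and 10.16 on the control arrays. CT16 replicate 3 was the lowest of the 6 while the other CT16 arrays were the highest, and the difference was 0.13 ± 0.26, or 0.34 ± 0.17 without it.

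In homologous recombination 3 of 4 genes were tested and in the Fanconi anemia pathway 3 of 7, with a lowest adjusted p of 0.959 by limma. RAD51C, which acts in strand exchange, had log2 signals of 10.28, 10.38 and 9.56 on the CT16 arrays and 9.37, 10.03 and 10.14 on the control arrays. The groups overlapped, with a difference of 0.22 ± 0.32 (SE, n = 3 each), or 0.47 ± 0.25 without CT16 replicate 3, and its other tested probes gave 0.16 and 0.05 over all arrays. XRCC3, its partner in the same complex, had log2 signals of 6.82, 6.58 and 8.09 on the CT16 arrays and 7.22, 6.90 and 6.71 on the control arrays. The difference of 0.22 ± 0.41 turned to −0.25 ± 0.21 without CT16 replicate 3. BRCA1 differed by −0.22 ± 0.48, and by 0.35 ± 0.23 without that array, on which it read 5.41 against 7.03 and 7.17 on the other CT16 arrays.

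FANCG, a subunit of the Fanconi anemia core complex, had the largest positive difference of the 30 genes. Its log2 signals were 9.08, 8.88 and 10.33 on the CT16 arrays and 9.04, 8.61 and 8.57 on the control arrays. CT16 replicate 2 lay below control replicate 1, and the difference of 0.69 ± 0.40 (SE, n = 3 each) was 0.24 ± 0.20 without CT16 replicate 3. FANCI, which is monoubiquitinated together with FANCD2 at a crosslink, had log2 signals of 7.23, 7.33 and 6.09 on the CT16 arrays and 6.58, 7.31 and 7.02 on the control arrays. Its difference was −0.09 ± 0.38, and 0.31 ± 0.24 without CT16 replicate 3. FANCL, the ubiquitin ligase of the core complex, differed by −0.06 ± 0.36, and by 0.30 ± 0.21 without that array. FANCC was detected on 0 CT16 arrays and 1 control array and FANCF on none, so they were not tested. BRCA2, FANCA and FANCD2 were not analysed here.

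CT16 replicate 3 lay outermost for most of these genes. It was the highest of the 6 arrays for 12 genes and the lowest for 13, together 83.3% of the 30, beside 79.4% of all genes. The median SD over the CT16 arrays was 0.496 and over the control arrays 0.257, and the SD was larger over the CT16 arrays for 27 of 30 genes. Both translesion synthesis genes were lower there than on the other CT16 arrays, with −2.13 for REV3L and −1.34 for REV1. Among the nucleotide excision repair genes ERCC1, ERCC2 and LIG1 were higher there than on the other CT16 arrays by 0.87, 1.13 and 1.07, and ERCC5 and RAD23B lower, with −1.55 and −1.90. Leaving the array out turned the sign of 12 of the 30 differences and brought the median to 0.03. The number past an adjusted p under 0.05 was then still 0, beside 107 of 11096 genes (0.964%). The arrays of 12 genes did not overlap in that setting, where 34.3% of all genes did not.

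**Figure D4:**
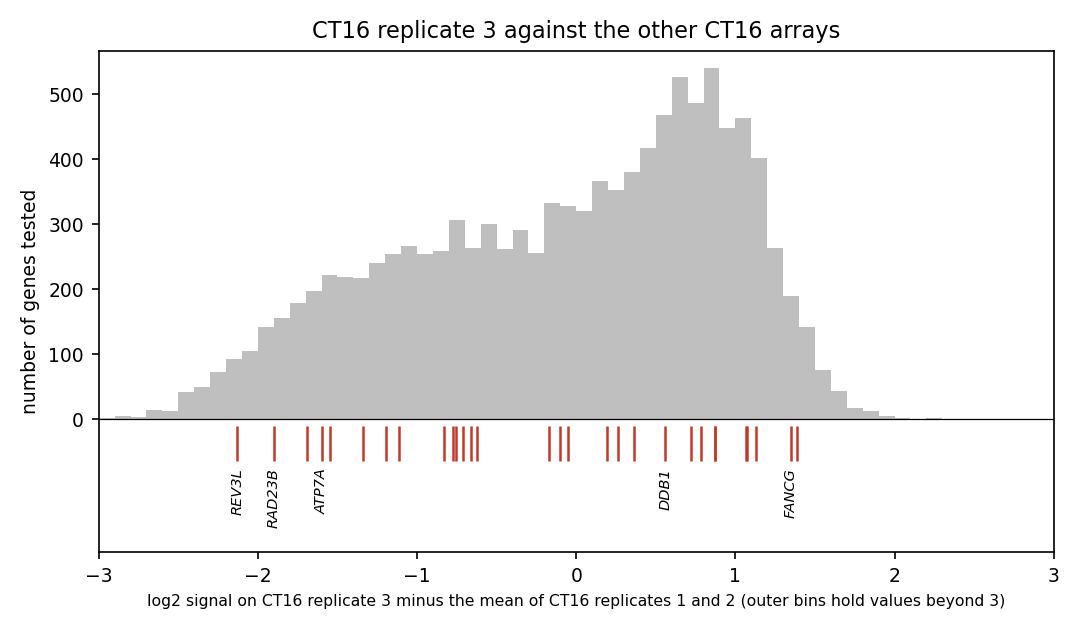
Log2 signal on CT16 replicate 3 minus the mean of CT16 replicates 1 and 2, over all 11264 tested genes (grey histogram, number of genes per bin) and for each of the 30 repair and platinum genes (red ticks, some named). The ticks spread over both sides of 0, from REV3L at −2.13 to XRCC3 at 1.39.

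Control replicate 1 leaned the same way within its own group. For 14 genes both CT16 replicate 3 and control replicate 1 were the lowest of their group (46.7%, beside 35.2% of all genes), and for 12 both were the highest (40%, beside 40.8%). XPC, MSH6, RAD51C, BRCA1, REV1, REV3L and ATP7A were among the genes low on both arrays, and ERCC1, XRCC1, XRCC3, FANCG and GSTP1 among those high on both. For PARP1, ATP7B and ABCC2 these arrays lay at opposite ends (10%, beside 9.30%). SLC31A2 showed none of these patterns.

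A wider list held 136 further genes, of these pathways and of nonhomologous end joining and damage signalling. Of them 109 were tested, 58 were higher and 51 lower in CT16 cells, and the median difference was 0.03. None reached an adjusted p under 0.05 by limma, and 2 had an unadjusted p under 0.05, beside 6.41% of all genes. CHEK2, a checkpoint kinase activated by ATM at double-strand breaks, had log2 signals of 8.34, 8.23 and 8.38 on the CT16 arrays and 7.45, 7.55 and 7.51 on the control arrays. The groups were apart and CT16 replicate 3 lay with its group, with a difference of 0.81 ± 0.19 (SE, n = 3 each) and an adjusted p of 0.294. A second tested CHEK2 probe differed by 0.47 ± 0.22. ABCB1 (P-glycoprotein), a drug efflux pump, had log2 signals of 5.77, 5.74 and 5.62 on the CT16 arrays and 5.20, 5.34 and 5.22 on the control arrays, a difference of 0.46 ± 0.20 with an adjusted p of 0.775. It was detected on 3 CT16 and 2 control arrays, near the limit of detection.

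By pathway the further genes had small median differences. The median was −0.01 for 17 further nucleotide excision repair genes, 0.12 for 16 of base excision repair, 0.06 for 6 of mismatch repair and −0.13 for 13 of homologous recombination. It was 0.13 for 13 of the Fanconi anemia pathway, −0.39 for 6 of translesion synthesis, −0.05 for 8 of nonhomologous end joining, 0.13 for 12 of damage signalling and 0.02 for 18 of platinum transport and glutathione metabolism. Several of these medians turned sign without CT16 replicate 3. Nucleotide excision repair then had 0.04, base excision repair −0.03, homologous recombination 0.10, and platinum transport and glutathione metabolism −0.04. The translesion synthesis genes, with 1 higher and 5 lower, stood lowest here as among the 30, and their median was 0.03 without CT16 replicate 3. Many repair genes are transcribed more in S phase, and the median difference of 21 tested G1/S genes was 0.17, or 0.03 without that array. The part of the cell cycle in the repair gene values was not tested. Metallothioneins, small proteins that bind metals including platinum, had a median difference of 1.50 over 5 tested genes, all higher in CT16 cells, of which MT1E passed the test with an adjusted p of 0.0102 by limma.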

How the data were processed

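RNA from 3 CT16 transfected and 3 control transfected WM-266-4 cultures was measured on 1-colour Illumina Human-6 bead arrays. The authors deposited an unnormalized table with a bead intensity and a detection p-value for each probe and array, and a table of quantile normalized intensity values, used only as an alternative. It matched quantile normalized signals within 1% for 99.998% of values. The unnormalized table held 48804 rows and 48803 probes, and 1 repeated probe was averaged. Signals were background corrected by normexp with controls inferred from the detection p-values (nec, offset 16), quantile normalized and put on a log2 scale. Tested were the 18156 probes with a detection p under 0.01 on at least 3 of 6 arrays. CT16 was compared with control by limma 3.58.1 (lmFit, eBayes) in R 4.3.3, two-sided, with Benjamini-Hochberg adjustment over all tested probes and a threshold of 0.05. The rank product test of the study was not run here. Genes were named from platform annotation: 27578 probes had 1 symbol, 13 several and 21212 none listed. A gene was represented by its tested probe of highest mean signal. The number of arrays limits the precision. The members and lists were chosen with earlier results of these data known. Values on every array are given for PAGE5, for any of the 37 genes past the threshold, at an unadjusted p under 0.05 or with groups apart, and for the 2 largest differences of each role. Of the further pathway genes, those at an unadjusted p under 0.05 are named, with the value on every array. Promoters came from RefSeq (GRCh38.p14) for 28 of the 30 tested genes. The test was checked on simulated data with independent noise of equal size on every array, without an outlying array such as CT16 replicate 3. The closing section gives 17 alternatives.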

Additional observations from a re-analysis of the deposited data

How the results depend on the processing

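No repair or platinum gene passed an adjusted p under 0.05 by limma under 16 of the 17 alternatives. The exception was array weights, with 14 genes, where 4384 of 11264 genes (38.9%) passed. There the weighting stopped before it converged, with weights between 0.0601 for CT16 replicate 3 and 37.8 for CT16 replicate 1. With no detection filter 34 genes of the list were tested. The number at an unadjusted p under 0.05 was then 4 (ABCC2, ATP7B, FANCC and XPA), beside 7.77% of all genes. It was 4 with the mean of all tested probes of a gene (ABCC2, ATP7B, DDB1 and PMS2), beside 6.39%. Array weights gave 14, beside 47.9%. Leaving out 1 array at a time gave 1 to 4 genes at that p, with ABCC2 in each, beside 3.11% to 11.7% of all genes. The number was 1 without CT16 replicate 1 (4.63% of all genes) and without control replicate 1 (4.05%), and 4 without CT16 replicate 2 (7.71%). The genes with no overlap numbered 5 to 12, with 8 without CT16 replicate 2 (22.0% of all genes), 11 without control replicate 1 (28.5%) and 12 without CT16 replicate 3 (34.3%). With 1 array left out the median difference ranged from 0.0086, without control replicate 1, to 0.11, and it was 0.13 when detection on all 6 arrays was required. Of the 15 genes given on every array, 10 kept their sign under every alternative. Without CT16 replicate 3, XRCC1 was −0.18, XRCC3 −0.25, FANCI 0.31 and REV1 0.26. With array weights XRCC1 was −0.15, XRCC3 −0.057 and FANCI 0.032. Without control replicate 2, FANCI was 0.083 and REV1 0.012, and without control replicate 1 RAD51C was −0.019. With 1 array left out the differences ran from −0.18 to 0.36 for XRCC1, −0.019 to 0.47 for RAD51C, −0.25 to 0.51 for XRCC3, −0.31 to 0.31 for FANCI and −0.47 to 0.26 for REV1. The cause of these changes was not tested. Over all genes, 27 passed with all 6 arrays, 2 to 107 with 1 array left out and 4 when detection on all 6 arrays was required.

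Whether equal replicate numbers pair the samples is not stated in the sources. The correlations of same-numbered deviations from the group means were −0.62, 0.61 and −0.58, and CT16 replicate 3 correlated best with control replicate 1 (0.75). With 3 arrays a group and CT16 replicate 3 outlying, these correlations cannot decide whether the samples were paired. With the replicate number as a block, 0 repair or platinum genes and 3 of all genes passed. Of the 30 genes, 2 had an unadjusted p under 0.05 (ABCC2 and REV3L), beside 4.01% of all genes. Groups were apart for 5, beside 14.2%, and the median was 0.11. Limits: with 3 arrays a group and SEs up to 0.621, changes near 1 log2 unit lay within the interval of 15 of the 30 genes, and the dim probes of XPA, ERCC6, FANCC and FANCF were not tested.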
